A study of Mus musculus with 6 samples.

Results

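The genes described here encode the protein complexes of mitochondrial oxidative phosphorylation, and they were measured by total RNA sequencing in mouse epiblast-like cells (EpiLCs) with and without the Nodal and Activin effectors Smad2 and Smad3. Members were taken by gene symbol. They are the genes whose symbol begins with Nduf, Uqcr or Atp5, the numbered Cox4i, Cox5, Cox6, Cox7 and Cox8 genes, and Sdha, Sdhb, Sdhc, Sdhd, Cycs and Cyc1. This gave 94 of the 24288 gene symbols in the deposited table, located on 19 chromosomes, and 91 of the 94 had enough reads to be tested. Cox6a2, Cox8b and Cox8c did not. The symbols also take in 7 complex I assembly factors (Ndufaf1 to Ndufaf7), Atp5s and Atp5sl, none of which is a subunit of the finished complexes.

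The 3 wild-type (WT) libraries came from the CCE embryonic stem cell (ESC) line. The labels give both lines the strain 129/Sv//Ev. The 3 Smad2/3 double-knockout (DKO) libraries came from a single clone, KT15.1F6, in which the first part of Smad3 was deleted in ESCs already homozygous for a targeted Smad2 allele, so that an effect of the genotype and a property of the clone cannot be told apart. Cells of both lines were grown with inhibitors of Mek and Gsk3 and with LIF, and were then cultured with Fgf2 and Activin A for 2 days, in 3 separate differentiations per genotype. Each library held between 57644143 and 63046034 reads in genes. Smad3 RNA, at 839 ± 37.0 normalized reads in the WT libraries, fell to 23.6 ± 6.16 without the 2 Smads (mean ± SD, n = 3 each, here and below). Smad2 went against the label at the level of the whole gene, at 4520 ± 86.3 in WT and 5062 ± 109 in DKO (log2 fold change 0.16, adjusted p = 2.27e-05 by limma). The table does not separate the targeted part of Smad2 from the rest, so its count does not check that allele. All 9 epiblast markers were expressed in every library, and all 9 passed the adjusted p (3 higher and 6 lower in DKO). Of them 3 were changed, Fgf5 (log2 fold change -2.02) and Pou3f1 (-0.62) lower in DKO and Sox2 (1.47) higher. Summed trophoblast markers ranged from 1816 to 1934 in WT and from 3332 to 3717 in DKO, and 8 of the 9 tested were changed, all higher in DKO. Of 8 naive pluripotency markers 7 were changed, also higher in DKO. The part of such cell-state differences in the values below was not tested.

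The respiratory chain passes electrons from NADH (complex I) and succinate (complex II) through complex III and the carrier cytochrome c to oxygen (complex IV), and complex V, the ATP synthase, uses the resulting proton gradient to make ATP. Complexes I, III, IV and V combine nuclear-encoded subunits with subunits encoded by the mitochondrial genome, and the table held 0 genes of the mitochondrial chromosome, so only the nuclear part was measured. Several complex IV subunits exist as a common form and a form found mainly in heart and skeletal muscle, lung or testis. Pluripotent cells are known to shift between oxidative and glycolytic metabolism as they leave the naive state.

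Promoter sequences are shown first because respiratory chain genes are a textbook target of the transcription factor Nrf1. RefSeq windows running from 250 bases before to 50 bases after a transcript start (build GRCm38.p6) were matched for 77 members, of which 76 were tested. The letters GCGCATGCG, the Nrf1 motif searched on both strands, lay in 13.4% of the 82 windows of tested members, in 3.05% of the windows of all genes tested and in 1.75% of all windows in the reference. The letters AAGATGGC, a form of the Yy1 motif searched likewise, lay in 14.6%, 3.75% and 2.75%. The latter include the start codon letters ATG, and most of the matches lay after the transcript start. The ETS letters CCGGAAGT lay in 6.1% of the windows of tested members and in 6.77% of those of all genes tested, and TATAAA, searched on the coding strand, in 2.44% and 4.81%. Matches are shown for members described below, with the motif in capitals.

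Ndufa11, Nrf1 (chr17:56717692-56717721, + strand): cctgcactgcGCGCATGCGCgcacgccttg
Cox6a1, Nrf1 (chr5:115349101-115349130, - strand): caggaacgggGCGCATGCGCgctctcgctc
Cycs, Nrf1 (chr6:50566612-50566640, - strand): catgctagctCGCATGCGCgcgcacaaac
Ndufaf4, Nrf1 (chr4:24897960-24897989, + strand): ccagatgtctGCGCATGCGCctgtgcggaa
Atp5l, Nrf1 (chr9:44920965-44920992, - strand): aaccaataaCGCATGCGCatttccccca
Ndufs6, Yy1 (chr13:73328433-73328459, - strand): ggtcaccggcAAGATGGCggcggtgct
Ndufa3, Yy1 (chr7:3617385-3617412, + strand): cgccaagaacAAGATGGCcgggagtaag
Ndufa9, Yy1 (chr6:126849098-126849125, - strand): attgtgggagAAGATGGCggccgccgtc
Atp5f1, Yy1 (chr3:105959249-105959276, - strand): tgtgcgagcgGCCATCTTgctcctgccc

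The median log2 fold change of DKO over WT was 0.01 over the 11 tested members with the Nrf1 letters and 0.05 over the 65 without, and it was 0.07 and 0.04 for the Yy1 letters. Ndufa11 and Atp5l, which both hold the Nrf1 letters, lay near opposite ends of the members (0.28 and -0.16). A match is a description of the letters in a window and not evidence of binding.

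The nuclear respiratory chain genes differed little between WT and DKO EpiLCs. A gene was called changed when limma's test gave a Benjamini-Hochberg adjusted p under 0.05 and the fold change was over 1.5, and 2 of the 91 tested members were changed (2.2%) against 15.4% of all 17038 genes tested. Both, Cox4i2 and Cox7b2, are tissue forms of complex IV subunits and were higher in DKO, as were 7.35% of all genes tested, and 0 members were lower, against 8.04%. Most members are abundant, and 88 of those tested averaged 100 or more normalized reads. Of all genes at such levels, 10.1% were changed (4.79% higher and 5.29% lower). The 95% interval of the fold change lay inside 1.5-fold in either direction for 87 of the 91 members (64.7% of all genes tested, 85.0% of those averaging 100 or more). The median absolute log2 fold change was 0.07 over the members, 0.19 over all genes tested and 0.14 over the abundant genes.

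**Figure D1:**
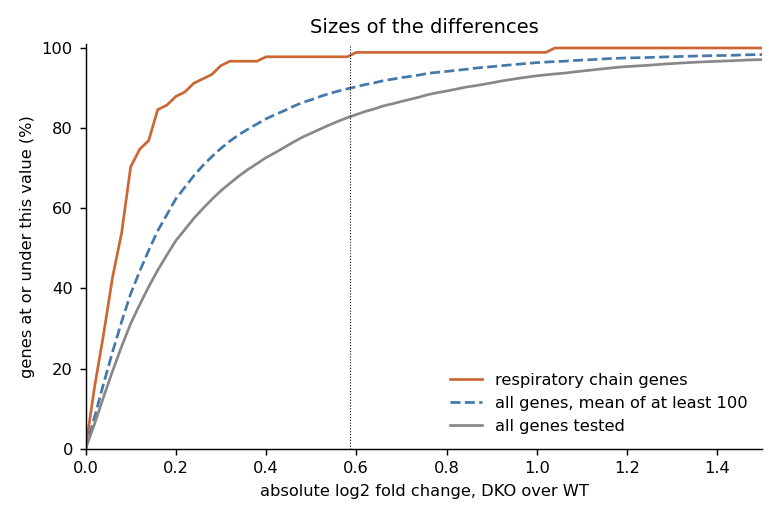
Share of genes (vertical axis, percent) whose absolute log2 fold change between DKO and WT is at or under the value on the horizontal axis, for the 91 tested respiratory chain genes, all 17038 genes tested and the 11930 genes averaging 100 or more normalized reads. The dotted line is a 1.5-fold difference, and the curve of the respiratory chain genes lies above both others up to this line.

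Small differences could nevertheless be resolved, since the libraries of a genotype were close to each other (median coefficient of variation of the members 2.70% in WT and 2.43% in DKO). With no fold threshold, 38 members passed the adjusted p of 0.05, against 53.4% of all genes tested and 61.0% of the abundant ones. Of these, 31 were higher in DKO (34.1% of the members tested, against 26.9% of all genes and 31.3% of abundant genes) and 7 were lower (7.69% against 26.5% and 29.7%). The 3 DKO libraries lay above all 3 WT libraries for 35 members (29.7% of all genes tested, 33.7% of abundant genes) and below them for 10 (29.3% and 32.2%). The median log2 fold change was 0.05 over the members and 0.00 over all genes tested. Of the 88 abundant members, the ratio of means was within 10% of 1 for 71, and differed by over 20% for 5.

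**Figure D2:**
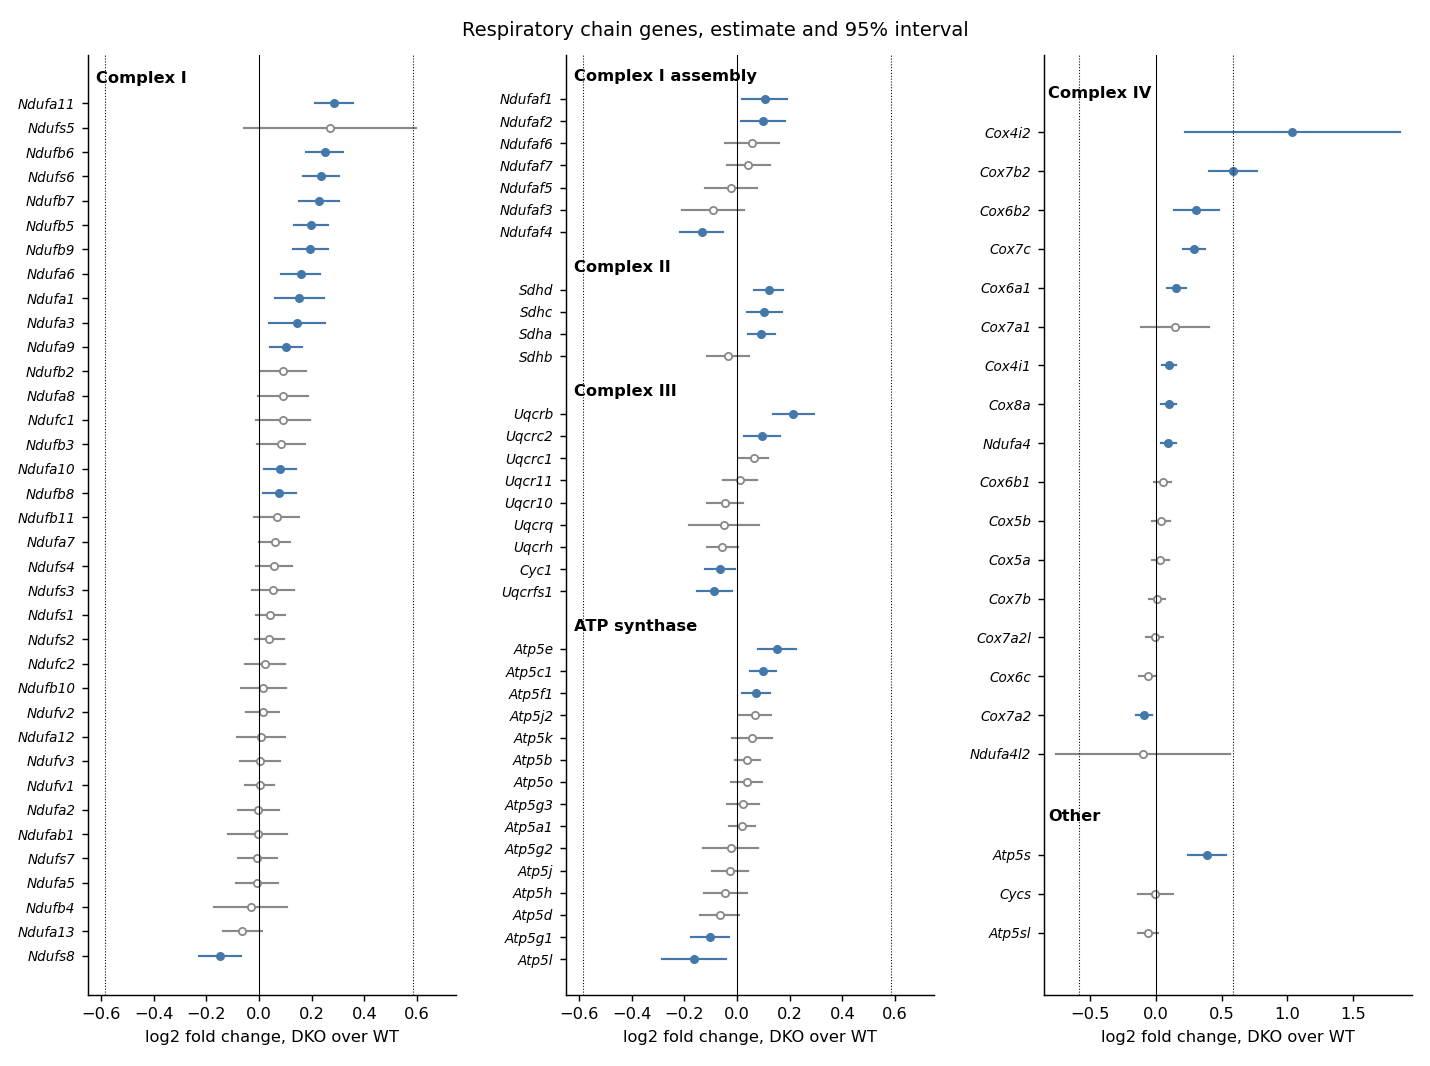
Log2 fold change of DKO over WT (horizontal axis) with its 95% interval for the 91 tested members, grouped by complex; the right panel has a wider axis. Filled blue points passed the adjusted p of 0.05, open grey points did not, and dotted lines mark 1.5-fold; only Cox4i2 and Cox7b2 lie past these lines.

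Summed over all members and scaled to library size, CPM values were 9420, 9566 and 9568 in the WT libraries and 9904, 9796 and 9698 in the DKO libraries, 2.96% higher on average in DKO. The groups did not overlap, but the difference was small beside the total. Atp5b and Atp5a1, the beta and alpha subunits of the catalytic head of the ATP synthase, supplied 14.5% and 11.9% of the members' reads in WT. By complex, the summed reads differed by 4.77% for complex I, 5.74% for complex II, 0.346% for complex III, 3.71% for complex IV and 1.98% for complex V, each with the higher mean in DKO. The WT and DKO libraries overlapped for complexes III and V and did not for complexes I, II and IV. In bulk RNA, a different share of cells with a given level and a different level per cell cannot be told apart.

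**Figure D3:**
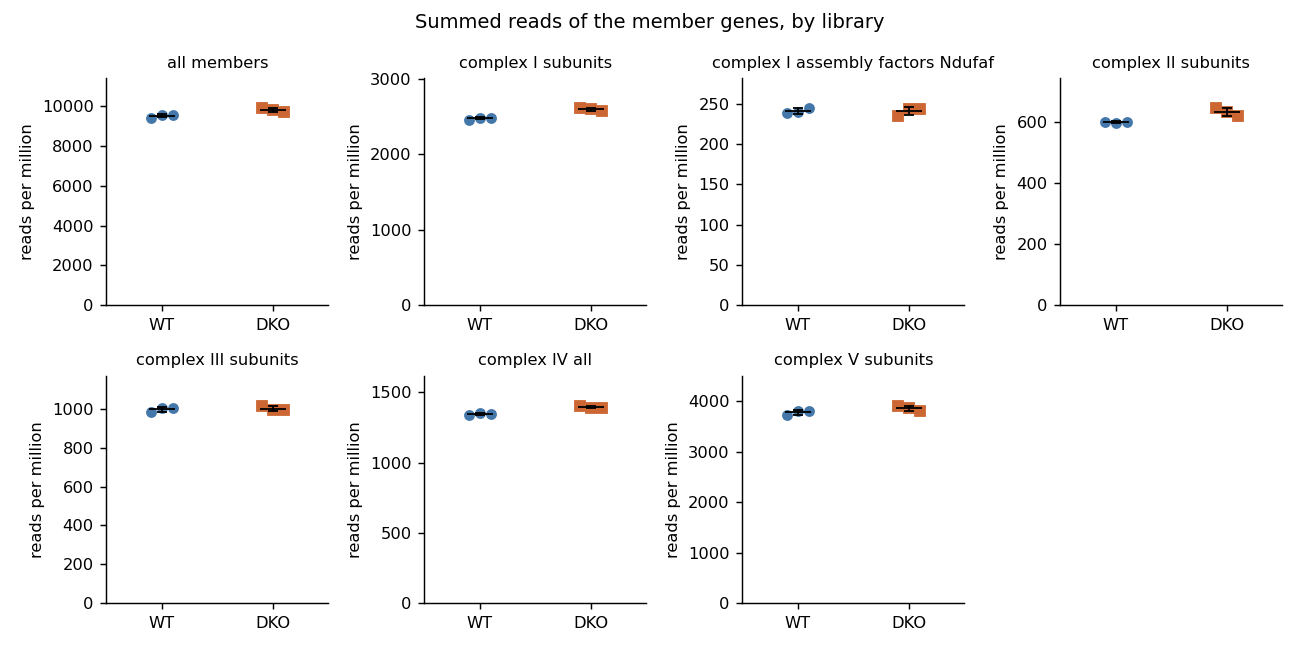
Summed CPM of the members (vertical axis, from 0, scaled to all reads in genes) in each WT and DKO library, over all members and for each complex. Points are libraries and bars give the mean and SD (n = 3); DKO lies slightly above WT for complexes I, II and IV.

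Complex I oxidizes NADH. Its catalysis rests on core subunits, 7 of them nuclear-encoded, and accessory subunits stabilize it. Of its 36 subunits among the members 0 were changed by limma, edgeR or DESeq2, while 14 had an unadjusted limma p under 0.05 and 13 passed the adjusted p, 12 higher and 1 lower in DKO. The 36.1% of complex I that passed compares with 53.4% of all genes and 61.0% of abundant genes. All 12 were accessory subunits (41.4% of 29, against 26.9% of all genes and 31.3% of abundant genes that were higher), and 5 of them belong to the 10 Ndufb genes, which encode parts of the membrane arm. Ndufa11, an accessory subunit of the membrane arm, had normalized reads of 2125, 2204 and 2340 in WT and of 2720, 2680 and 2710 in DKO. It had the highest estimate of the complex, at 0.28 ± 0.04 on the log2 scale (estimate ± SE, adjusted p = 1.61e-07 by limma).

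Ndufb6 was at 1765, 1836 and 1840 in WT and at 2175, 2146 and 2149 in DKO (log2 fold change 0.25 ± 0.03). Ndufs6, an accessory subunit near the NADH-oxidizing module, was at 2007, 1977 and 1977 in WT and 2315, 2391 and 2307 in DKO (0.23 ± 0.03). For both, each DKO library was above each WT library. Ndufb7 (0.23), Ndufb5 (0.20), Ndufb9 (0.19), Ndufa6 (0.16), Ndufa1 (0.15), Ndufa3 (0.14), Ndufa9 (0.10), Ndufa10 (0.08) and Ndufb8 (0.08) complete the accessory subunits that passed. Of these, Ndufa3, Ndufa10 and Ndufb8 no longer passed in 4, 2 and 4 of the 6 fits that left out 1 library. For Ndufa3 and Ndufa10 the adjusted p by limma reached 0.104 and 0.144. Ndufb8 was also lost by DESeq2, with no filter on low values and with the replicate number as a block (adjusted p up to 0.176 over all alternatives). By DESeq2, 11 accessory subunits passed, 4 of them Ndufb genes. Ndufs5 had a log2 fold change of 0.27 ± 0.16 from under 100 normalized reads a library and did not pass (adjusted p = 0.16 by limma).

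Ndufs8, an iron-sulfur core subunit on the route of electrons to ubiquinone, went the other way. It was at 1738, 1898 and 1885 in WT and at 1675, 1630 and 1670 in DKO, without overlap, and its log2 fold change was -0.15 ± 0.04 (adjusted p = 0.00184 by limma). The other core subunits did not pass. Ndufv1, the flavoprotein that takes electrons from NADH, was at 5486 ± 137 in WT and 5491 ± 39.2 in DKO, with a 95% interval of the log2 fold change from -0.05 to 0.06.

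**Figure D4:**
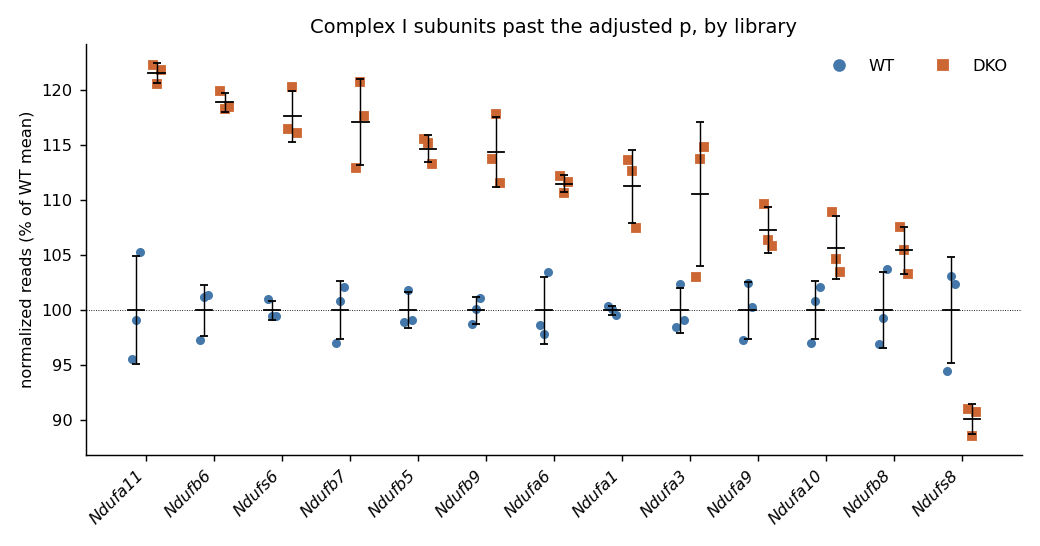
Normalized reads of the 13 complex I subunits that passed the adjusted p, as a percentage of the WT mean (vertical axis, not from 0), in each library. Points are libraries and bars give the mean and SD (n = 3); the 12 accessory subunits lie higher in DKO and Ndufs8 lower.

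The assembly factors Ndufaf1 to Ndufaf7 help to build complex I without being part of it. Of the 7, 42.9% passed the adjusted p (53.4% of all genes, 61.0% of abundant genes). Ndufaf1 (0.10) and Ndufaf2 (0.10) were higher in DKO and Ndufaf4 was lower. The first pair was unstable, since Ndufaf1 lost its call under 6 of 16 alternatives and Ndufaf2 under 10, DESeq2 among them for both (adjusted p up to 0.202 and 0.187). Ndufaf4 was at 2031, 2109 and 2139 normalized reads in WT and 1796, 2005 and 1920 in DKO, a log2 difference of -0.14 ± 0.04 (adjusted p = 0.00469 by limma). The groups did not overlap, and without DKO replicate 1 the adjusted p by limma was 0.0532.

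Complex II oxidizes succinate and is encoded by nuclear genes alone. Of its 4 genes 3 passed the adjusted p, all higher in DKO (75.0%, against 26.9% of all genes and 31.3% of abundant genes). They were Sdha, the flavoprotein (8716 ± 111 and 9294 ± 214 normalized reads, log2 fold change 0.09 ± 0.03), and the membrane anchors Sdhc (0.10 ± 0.03) and Sdhd (0.12 ± 0.03). Sdhb, the iron-sulfur subunit, was at 2616 ± 134 and 2553 ± 123 and did not pass (adjusted p = 0.471 by limma). Sdhc no longer passed without WT replicate 2 or without DKO replicate 2 (adjusted p up to 0.0598).

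Complex III passes electrons from ubiquinol to cytochrome c. Of its 9 genes 44.4% passed the adjusted p (53.4% of all genes, 61.0% of abundant genes), 2 in each direction. Uqcrb, a small subunit, was at 1411, 1463 and 1413 normalized reads in WT and 1669, 1611 and 1694 in DKO (log2 fold change 0.21 ± 0.04), and Uqcrc2, a core protein, was also higher (0.09 ± 0.03). The redox-active subunits Uqcrfs1, the Rieske protein, and Cyc1, cytochrome c1, were lower in DKO by limma, with log2 fold changes of -0.09 ± 0.03 and -0.07 ± 0.03 (adjusted p = 0.0246 and 0.0491). Both of these calls were lost without WT replicate 2, WT replicate 3, DKO replicate 2 or DKO replicate 3, and Cyc1 also without WT replicate 1, with the replicate block or with no filter on low values (adjusted p up to 0.145 for Uqcrfs1 and 0.167 for Cyc1). Uqcrc2 was lost without WT replicate 1, DKO replicate 1 or DKO replicate 2 (up to 0.14). Cycs, the somatic cytochrome c, was at 376 ± 13.9 in WT and 374 ± 11.6 in DKO.

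Complex V makes ATP, and its genes included the 2 highest of the members. Per kilobase of gene body, Atp5b had 6389 and Atp5a1 4069 normalized reads in WT, before Cox8a with 1895 and Cyc1 with 1677. Neither Atp5b (45244 ± 1158 and 46488 ± 980 normalized reads) nor Atp5a1 (37033 ± 1096 and 37516 ± 978) passed, and the 95% intervals of their log2 fold changes ran from -0.01 to 0.09 and from -0.03 to 0.07. Of the 15 genes 3 were higher in DKO and 2 were lower, so that 33.3% passed (53.4% of all genes, 61.0% of abundant genes). The higher ones were Atp5e (epsilon subunit, 0.15), Atp5c1 (gamma subunit, 0.10) and Atp5f1 (subunit b, 0.07). Atp5f1 no longer passed without WT replicate 2 or without DKO replicate 1 (adjusted p by limma up to 0.158). Atp5l, subunit g of the membrane part, was at 560, 557 and 526 in WT and 455, 520 and 492 in DKO (log2 fold change -0.16 ± 0.06, adjusted p = 0.0223 by limma). The groups did not overlap, but 63.4% of the 75-base windows of the Atp5l transcript also occur in other annotated genes, so its level is uncertain. Its call was lost without WT replicate 1, WT replicate 2 or DKO replicate 1 (adjusted p by limma up to 0.139).

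Subunit c, the rotating ring of the ATP synthase, is encoded by 3 genes that give the same mature protein. Atp5g3 took 64.6% ± 0.0459 of their reads in WT and 66.2% ± 1.23 in DKO, Atp5g1 24.6% ± 0.377 and 23.1% ± 0.802, and Atp5g2 10.8% ± 0.419 and 10.8% ± 0.611. Atp5g1 was at 1991, 1911 and 1984 normalized reads in WT and at 1816, 1793 and 1866 in DKO, without overlap (log2 fold change -0.10 ± 0.03, adjusted p = 0.0142 by limma). It no longer passed without WT replicate 1 or without DKO replicate 2 (adjusted p up to 0.069). Atp5g2 (-0.02) and Atp5g3 (0.02) did not pass, and 86.9% of the Atp5g2 windows occur in other genes. Atp5s, which is not a subunit, was at 376, 320 and 325 in WT and 461, 449 and 423 in DKO (0.39 ± 0.07, adjusted p = 3.39e-05).

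Complex IV reduces oxygen to water. Of the 11 common forms of its subunits, 5 were higher in DKO and 1 lower, 54.5% in all (53.4% of all genes, 61.0% of abundant genes). Cox7c was at 2164, 2231 and 2024 normalized reads in WT and 2500, 2597 and 2751 in DKO (log2 fold change 0.29 ± 0.04), although 50.4% of its transcript windows also occur in other annotated genes. Cox6a1 (0.15 ± 0.03), Cox4i1 (0.10 ± 0.03), Cox8a (0.10 ± 0.03) and Ndufa4 (0.09 ± 0.03), first assigned to complex I and now counted with complex IV, were also higher, and Cox7a2 was lower (-0.09 ± 0.03, adjusted p = 0.01 by limma). Cox5a, Cox5b, Cox6b1, Cox6c and Cox7b did not pass.

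Both changed members were tissue forms of complex IV. Cox7b2, a paralogue of Cox7b known from testis, lies at chr5:71442823-71548205 (GRCm38.p6). It was at 174, 151 and 153 normalized reads in WT and 242, 245 and 231 in DKO, with no overlap. Its log2 fold change was 0.59 ± 0.09 (adjusted p = 2.87e-06 by limma), only just past the 1.5-fold threshold, with a 95% interval from 0.41 to 0.77. Cox7b itself was at 4111 ± 66.8 and 4139 ± 125, and Cox7b2 took 3.73% ± 0.335 of the reads of the pair in WT and 5.47% ± 0.275 in DKO. Per kilobase of gene body, the shares of Cox7b2 were 0.248% and 0.369%, since its annotated body is far longer.

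Cox4i2, the form of subunit 4 known from lung, lies at chr2:152753916-152765039. It was at 5.37, 4.55 and 3.20 normalized reads in WT and 6.46, 14.2 and 10.4 in DKO, from 6 to 27 reads a library. Its log2 fold change was 1.04 ± 0.40 (adjusted p = 0.0303 by limma), and the lowest DKO library lay close to the highest WT library. It no longer passed by DESeq2 or without WT replicate 3, DKO replicate 2 or DKO replicate 3 (adjusted p up to 0.172). It took 0.0605% of the Cox4i reads in WT and 0.133% in DKO, the rest being Cox4i1. Its body overlaps that of Bcl2l1 (943 ± 99.0 and 1172 ± 46.3 normalized reads), and Id1, 16.5 kb away, was at 48.5 ± 3.36 in WT and 4494 ± 283 in DKO. Of the next nearest genes, H13 was lower in DKO (log2 fold change -0.19), and Mcts2 (0.13) and Tpx2 (0.14) were higher. These neighbours were chosen after their values were seen, and their part in the Cox4i2 reads was not tested.

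Cox6b2, a testis form of Cox6b1, passed the adjusted p without reaching 1.5-fold. It was at 227, 190 and 212 normalized reads in WT and 259, 269 and 249 in DKO (log2 fold change 0.31 ± 0.08, adjusted p = 0.0031 by limma). It took 6.45% ± 0.682 of the reads of the pair in WT and 7.57% ± 0.144 in DKO, or 32.6% and 36.5% per kilobase of gene body. Of the male germ cell marker list, 1 gene was changed higher (Dazl, 0.74) and 1 lower (Sycp1, -1.76) of 7 tested, and Prm1, Tnp1 and Acrv1 were at 0 in all libraries. Of all genes tested, 7.35% were changed higher and 8.04% lower. By the adjusted p, 3 of the 7 passed higher and 2 lower, against 26.9% and 26.5% of all genes tested. The summed level of this list ranged from 4724 to 4900 normalized reads in WT and from 4407 to 4612 in DKO. Sycp1 alone was at 2051 ± 82.4 in WT and 607 ± 31.2 in DKO, so the lower sum does not describe the other genes.

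The heart and skeletal muscle forms had low counts. Per kilobase of gene body, however, Cox7a1 took 10.2% of its family in WT and 11.4% in DKO. Cox7a1 was at 103, 91.6 and 132 normalized reads in WT and 123, 127 and 108 in DKO, with overlapping groups (adjusted p = 0.354 by limma). Of 9 tested striated muscle markers 1 was changed higher (Ckm, 0.94) and 1 lower (Actn2, -0.94) by limma, and 1 in all by DESeq2. Among all genes tested, 15.4% were changed by limma. By the adjusted p, 3 of the 9 markers passed higher and 3 lower, against 26.9% and 26.5% of all genes tested. Ckm rested on few reads (5.70 ± 2.46 normalized reads in WT and 11.8 ± 3.99 in DKO), unlike Actn2 (630 ± 12.5 and 330 ± 39.4). The summed list ranged from 1847 to 1852 in WT and from 1354 to 1453 in DKO. Cox6a2 was at 2.15, 1.14 and 0 in WT and at 0 in all DKO libraries, and Cox8b had a read in 1 WT library alone. Cox8c, another testis form, was at 2.69, 0.569 and 5.33 in WT and 4.31, 1.05 and 4.15 in DKO. In the 4 libraries without a Cox6a2 read, a count of 0 allows a share of up to 0.0788% of the Cox6a reads (3 reads of the total, for counting error only). Ndufa4l2, a paralogue of Ndufa4 known to respond to low oxygen, was at 8.06, 13.7 and 22.4 in WT and 12.4, 12.6 and 13.0 in DKO, all within the WT range.

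**Figure D5:**
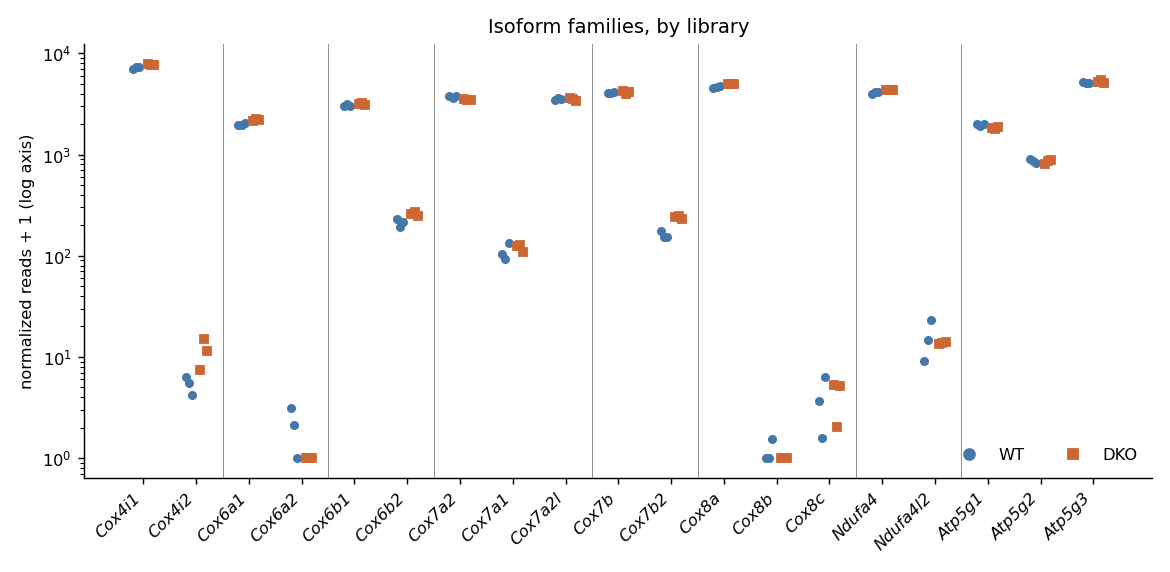
Normalized reads plus 1 (vertical log axis) of each member of the 8 isoform families in each library, WT as circles and DKO as squares; vertical lines separate families. With no scaling to gene length, the tissue forms lie far below the common forms of complex IV. Cox7b2, Cox6b2 and Cox4i2 are the tissue forms whose DKO libraries lie above all WT libraries.

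Genes that build or feed the chain were read from lists outside the members. Of 40 assembly factors of the complexes, 0 were changed by limma, edgeR or DESeq2. By limma 16 had an unadjusted p under 0.05 and 13 of the 40 passed the adjusted p, against 53.4% of all genes tested. Of those that passed, 9 were higher in DKO, such as Acad9 (log2 fold change 0.35) and Tmem126b (0.32). The other 4 were lower, such as Timmdc1 (-0.20). All of these named genes are complex I assembly factors, so such factors went in both directions. Of 16 genes of the tricarboxylic acid cycle and the pyruvate dehydrogenase complex 1 was changed, against 15.4% of all genes tested. The changed gene was Suclg1, a subunit of succinyl-CoA ligase, at 2981 ± 84.4 normalized reads in the WT libraries and 1544 ± 61.2 in DKO. By the adjusted p, 5 of the 16 passed in each direction, against 26.9% of all genes tested that were higher and 26.5% that were lower.

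Of 20 tested regulators of mitochondrial biogenesis 1 was changed, against 15.4% of all genes tested. Esrrg, an orphan nuclear receptor, was at 51.7 ± 3.08 normalized reads in the WT libraries and 19.7 ± 3.71 in DKO (log2 fold change -1.36 ± 0.20). Ppargc1b, a coactivator of such receptors, was lower in DKO without reaching 1.5-fold (-0.56 ± 0.08). By the adjusted p, 5 of the 20 passed lower and 3 higher, against 26.5% and 26.9% of all genes tested. Polg (0.42 ± 0.03) was among the higher ones, and the regulators did not share a direction. Nrf1 (-0.05) and Yy1 (0.05), whose motifs were searched above, did not pass.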

How the data were processed

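Total RNA depleted of ribosomal RNA was sequenced (stranded, paired-end) in 6 libraries. Per the study's methods and the labels, the authors removed ribosomal reads with Bowtie2, aligned to mm10 with STAR, removed duplicates with SAMtools, counted reads over RefSeq gene bodies and scaled the counts with DESeq2. Their software versions, and whether counting used strand, are not given in the sources used here. The deposited table holds this normalized signal, which is read counts divided by a size factor. The values gave whole reads for 100% of entries within 0.01 reads. A second deposited table, with the authors' fold changes, errors and p-values, was not used. Rows without a symbol (138 of 33812, 0.517% of reads) were left out, and the row with the highest total was kept per symbol.

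Genes passing edgeR's filterByExpr were tested with limma 3.58.1 (R 4.3.3) on log2(normalized reads + 1) with a variance trend, two-sided, with Benjamini-Hochberg adjustment over 17038 genes. Fold changes are on that scale, which understates the change of low genes. Changed meant an adjusted p under 0.05 and over 1.5-fold, which held for 2623 genes, and for 2638 by edgeR 4.0.16 on the recovered reads. DESeq2 1.42.0 was another alternative. On simulated DKO and WT libraries of 17038 genes, limma recovered 97% of 100 genes with a log2 change of 1 and 100% of 100 with a change of 2. Replicates were separate differentiations of 1 line per genotype and differed by 3.01 to 4.63 times the sampling variance.

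Genes described in full were the changed members, the 5 highest and 5 lowest fold changes, and the isoform families. From each other list, at most 4 were named, changed genes first and then the largest fold changes. Timmdc1 was named in addition for its direction, and Nrf1 and Yy1 for their motifs. Members and lists were chosen with earlier results of these data known. The comparison with abundant genes (a mean of at least 100 normalized reads) and the reading of single calls under each alternative were chosen after seeing the data. Of the members, 30 share bases with another annotated gene. Isoform shares were taken from reads, with no test.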

Additional observations from a re-analysis of the deposited data

How the results depend on the processing

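The count of 2 changed members was 2 by edgeR, with pseudocount 0.1 and with no filter on low values, 1 with library-size or TMM scaling and 1 without members that share bases with another gene, and 0 by DESeq2, with pseudocount 10 and in a test against the fold threshold. Leaving out single libraries gave 0 to 2, with 0 without WT replicate 3 or DKO replicate 2. Cox7b2 ranged in log2 fold change from 0.55 to 0.65 around the 1.5-fold threshold and was no longer changed under 8 of 16 alternatives, and Cox4i2 ranged from 0.49 to 1.31 and was lost under 5, DESeq2 and the omission of WT replicate 3, DKO replicate 2 or DKO replicate 3 among them. The members that passed the adjusted p numbered 25 to 31 higher and 4 to 5 lower when single libraries were left out, with 4 lower without WT replicate 2. Of the 38 members that passed, 24 did so under all 16 alternatives, and the other 14 lost the call under at least 1. The median log2 fold change stayed between 0.04 and 0.05. Ndufa4l2, not called, ranged from -0.44 to 0.24, the latter without WT replicate 3.

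With the replicate number as a block, 2 members were changed, and 29 higher and 6 lower passed the adjusted p. Libraries with the same number did not deviate together (correlations 0.00881, -0.0293 and 0.0365 over 11930 genes). These values do not show whether same-numbered differentiations were run together.

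Per kilobase of gene body, the shares within families in WT and DKO became 0.0325% and 0.0718% for Cox4i2, 32.6% and 36.5% for Cox6b2, 40.1% and 38.4% for Cox7a2, 10.2% and 11.4% for Cox7a1, 49.7% and 50.3% for Cox7a2l, 0.248% and 0.369% for Cox7b2, 0.122% and 0.127% for Cox8c, 32.8% and 30.9% for Atp5g1, 5.12% and 5.11% for Atp5g2, and 62.1% and 64.0% for Atp5g3. They became 0.199% for Cox6a2 in WT and 0.260% for Ndufa4l2 in DKO. Gene bodies include introns, so neither scale gives molecules. Limits lie with the single DKO clone and with genes of few reads (Cox4i2, Cox6a2, Cox8b and Cox8c), where differences were hardly detectable.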
